A study of Drosophila melanogaster with 57 samples.

Results

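The effect of losing cystathionine γ-lyase in flies that already lacked cystathionine β-synthase was measured in whole adult females of *Drosophila melanogaster*. The double deletion strain CBS/CSE(2) was compared with CBS(8), the strain that gave it its *Cbs* deletion, using all 3 libraries of each, which are 6 of the 57 libraries of the series. Both strains carry the deletion of *Cbs* on the X chromosome, and CBS/CSE(2) also carries the deletion of *Cth* (called CSE in the strain names) on chromosome 2. The deletions were made with Cas9 in stock 58492, which serves as the control strain, by putting an mCherry reporter driven by an actin 5C promoter in place of the gene, and carriers of the *Cth* deletion were outcrossed to a yw strain. Flies were 5 days old, kept at 23 °C with 20 flies in a vial, and polyadenylated RNA was sequenced.

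Each strain is 1 line, so its other alleles travel with the deletion. CBS/CSE(2) came from CBS(8) crossed with 1 *Cth* deletion transformant, followed by further crosses with balancer stocks. In that scheme the X chromosome came from the CBS(8) side, chromosome 2 came from the *Cth* deletion strain, and chromosome 3 could come from any of the stocks. The loss of *Cth* and the replacement of the rest of chromosome 2 therefore cannot be told apart in this comparison. Another double deletion, CBS/CSE(1), came from CBS(5) and the same *Cth* transformant, and it is used below together with CBS(5), with the strain labelled CSE(8), in which *Cth* alone is deleted, and with males. The labels do not say that replicates came from separate cultures, so p-values measure the spread between these libraries.

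Cystathionine β-synthase joins homocysteine and serine to cystathionine, and cystathionine γ-lyase splits cystathionine to give cysteine. Together they form the transsulphuration pathway, which feeds cysteine into glutathione synthesis, and both can also release hydrogen sulphide as a side reaction. Glutathione in turn is used by glutathione transferases, which together with cytochromes P450 and UDP-glycosyltransferases modify foreign and endogenous compounds in the fat body, gut and Malpighian tubules of the fly.

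The 6 libraries held 19612605 to 24980600 counts on genes. No pair had identical counts. The CBS(8) libraries resembled each other closely (Pearson r of log2 CPM, the count scaled to the library size, 0.991 to 0.994), whereas those of CBS/CSE(2) spread more (0.963 to 0.983). CBS/CSE(2) replicate 2 lay nearest to CBS(8), with r between 0.979 and 0.984, and replicate 3 farthest, with r between 0.950 and 0.957. Several lists of tissue markers had the same order, and the eggshell list did not. The summed CPM of 8 female germline markers was 0.805, 1.02 and 0.604 times the CBS(8) mean in CBS/CSE(2) replicates 1, 2 and 3, and that of 6 flight muscle markers was 1.46, 0.897 and 2.58 times the mean. The 6 Malpighian tubule markers stood at 1.84, 1.14 and 2.78 times the mean, and the 8 fat body markers at 1.47, 0.801 and 1.70 times. Most of the fat body sum came from 3 yolk protein genes. They gave 24260, 11700 and 26730 of its 28870, 15690 and 33390 CPM in CBS/CSE(2) replicates 1, 2 and 3. The 13 eggshell markers varied in both strains, from 0.619 to 1.23 times the mean in CBS(8) and at 0.753, 0.280 and 0.628 times in CBS/CSE(2) replicates 1, 2 and 3, so that replicate 2 was farthest here. None of the germline, eggshell or flight muscle markers passed the test with all libraries. Without CBS/CSE(2) replicate 2, 5 germline markers were lower and 4 flight muscle markers higher, and without replicate 3, 3 eggshell markers were lower. DESeq2 called 3 germline markers lower, and the thorax-based scaling described below 3 eggshell markers lower. Of the 8 testis and 6 accessory gland markers none was tested, and no library held more than 6 counts on any of them. In whole flies, fewer cells of a type and less RNA per cell cannot be told apart. The part of tissue proportions in the differences below was not tested, and counts are given with and without replicate 2 or 3 where these decide them.

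**Figure D1:**
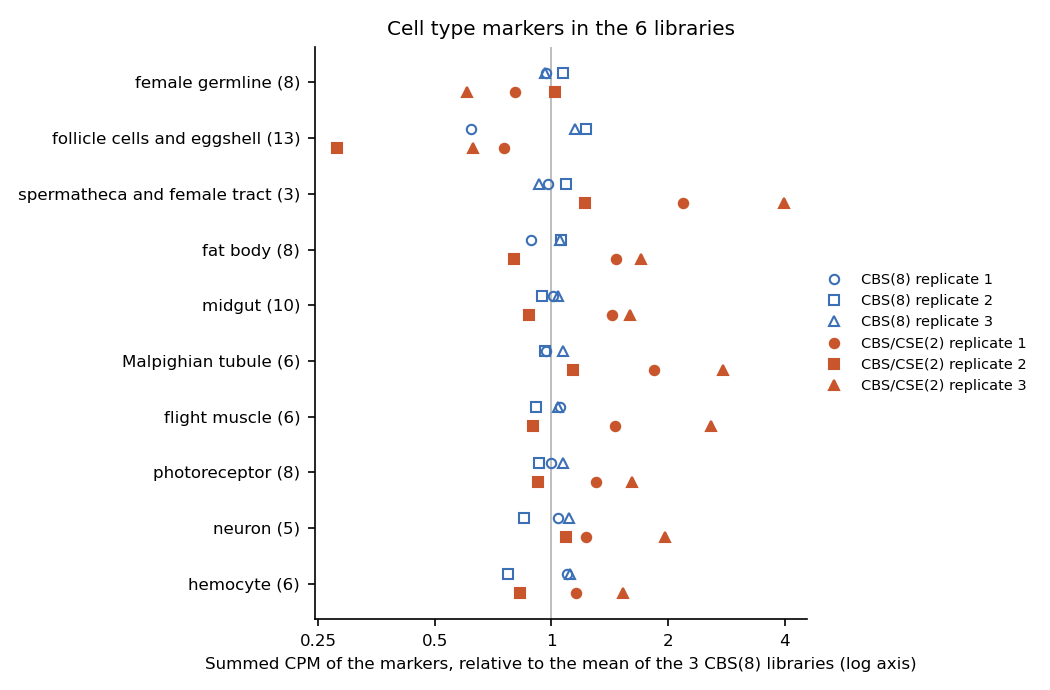
Summed CPM of tissue marker lists in each library of CBS(8) and CBS/CSE(2), relative to the CBS(8) mean. The germline list lies at 0.604 to 1.02 and the flight muscle list at 0.897 to 2.58 in CBS/CSE(2), with replicate 2 nearest to CBS(8) and replicate 3 farthest in both.

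Of 10548 genes tested, 565 differed between the strains (5.36%), 322 of them higher in CBS/CSE(2) (3.05%) and 243 lower (2.3%), at an adjusted p under 0.05 in the edgeR quasi-likelihood test. The difference was at least 2-fold for 326 genes (222 higher, 104 lower), and the libraries of the strains did not overlap for 557 of the 565. Over all tested genes they did not overlap for 1255 in the higher and 1160 in the lower direction. The median of all genes was -0.02 on the log2 scale. The genes called higher stood at a median of 1.15, 0.68 and 1.31 (log2) above the CBS(8) mean in CBS/CSE(2) replicates 1, 2 and 3. They were picked with replicate 2 in the fit, so its direction on them is not a separate result. Over all tested genes the median absolute departure (log2) from the CBS(8) mean was 0.302, 0.14 and 0.494 in these libraries. In the CBS(8) libraries it was 0.068 to 0.112. Without replicate 2 the test called 3874 genes (1484 higher, 2390 lower), and without replicate 3 it called 280. Leaving out any other single library of these strains gave 236 to 264 genes. With libraries scaled on genes that are high in thoraxes, which moved the median of all genes to -0.37, 168 genes were higher and 205 lower. A core of 115 genes kept its call in each of the 13 other settings in which it could be tested, with 68 higher and 47 lower.

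The largest rises were spread over genes of several kinds. *CG8851* had 0.260, 0.511 and 0.259 CPM in CBS(8) and 4.61, 5.39 and 6.76 CPM in CBS/CSE(2), a rise of 16.1-fold (log2 4.01 ± 0.32 SE, adjusted p = 7.42e-07). The CBS(8) libraries were the ones that stood low, since the control strain had 5.15 ± 0.435 CPM (SD, n = 3). *to* (takeout), a secreted carrier-like protein linked to feeding and the clock, had 28.1, 27.2 and 31.2 CPM in CBS(8) and 330, 175 and 454 CPM in CBS/CSE(2), which was 11.1-fold higher (log2 3.47 ± 0.59 SE, adjusted p = 0.00182). Every library of CBS/CSE(2) was several times above every library of CBS(8). *CG31955* rose from 2.64 ± 1.01 to 15.4 ± 1.91 CPM (log2 2.55, adjusted p = 0.000238) and *CG15155* from 11.1 ± 0.823 to 63.8 ± 35.1 CPM (log2 2.52, adjusted p = 0.000475). The pseudogene *CR44003* rose from 2.27 ± 0.820 to 12.2 ± 4.52 CPM (log2 2.42, adjusted p = 3.25e-05), a value that is uncertain where reads could come from a related copy. CBS(8) was among the low strains for both *CG31955* and *CR44003*. *CG31955* had 12.4 CPM in the control, 13.5 CPM in CBS/CSE(1), 6.51 CPM in CSE(8), 1.54 CPM in the strain labelled MST and 1.31 CPM in CBS(5). *CR44003* had 16.2 CPM in the control, 14.1 CPM in CBS/CSE(1), 18.1 CPM in CSE(8), 14.4 CPM in MST and 4.63 CPM in CBS(5). *CG13026* is among the 12 largest rises by size only. It had 2.64, 1.15 and 17.5 CPM in CBS/CSE(2) against 0.715 to 0.777 CPM in CBS(8) (adjusted p = 0.0498), and its call was lost when any library but CBS/CSE(2) replicate 2 was left out.

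**Figure D2:**
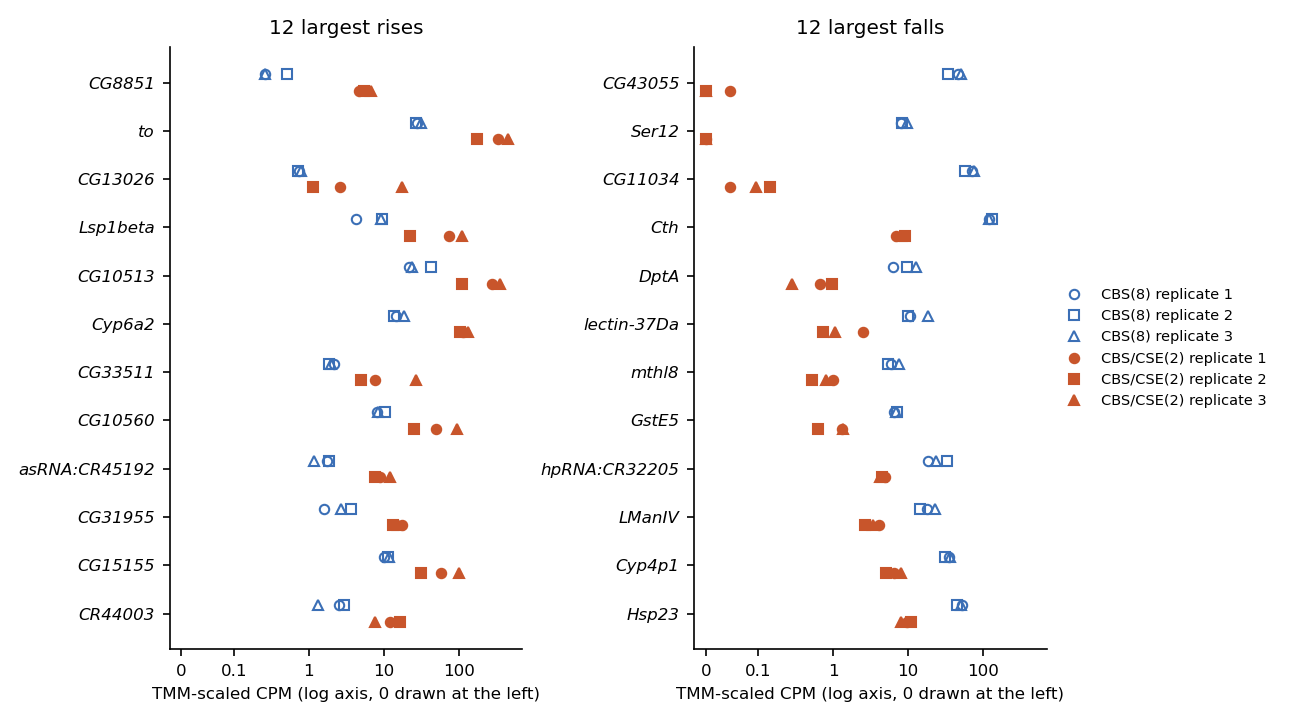
CPM on a log axis of the genes with the largest rises and falls, one point for each library of CBS(8) and CBS/CSE(2), with a value of 0 drawn at the left edge. *CG43055* and *Ser12* fall to 0 in most or all libraries of CBS/CSE(2), and replicate 2 has the lowest value of the 3 for *to* and *CG10513*.

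The targeted gene checked the labels. *Cth* (FBgn0000566, 2R:18627918-18629395, + strand, dm6) had 121, 130 and 120 CPM in CBS(8) and 6.91, 8.94 and 7.92 CPM in CBS/CSE(2), a fall of 15.6-fold (log2 -3.97 ± 0.12 SE, adjusted p = 1.62e-13). All libraries of CBS/CSE(2), replicate 2 included, were at the level of the strain in which *Cth* alone is deleted, with 7.34 CPM. *Cbs* was near 1 CPM in both strains, at 1.17 ± 0.158 CPM in CBS(8) and 0.862 ± 0.153 CPM in CBS/CSE(2) (adjusted p = 0.218), against 205 CPM in the control strain. *CG12279*, called MST in the strain names, which encodes a rhodanese-type sulphurtransferase, stood at 12.3 ± 1.08 and 13.6 ± 3.01 CPM (log2 0.15 ± 0.25 SE, adjusted p = 0.692).

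The gene next to *Cth* also had a lower level. *zda* (zonda), an FKBP-type protein that acts in autophagy, lies on the opposite strand with its centre 2.2 kb from that of *Cth* (distances between genes are from centre to centre) and had 133, 143 and 135 CPM in CBS(8) and 105, 87.9 and 112 CPM in CBS/CSE(2). The libraries did not overlap, and the fall was 1.35-fold (log2 -0.43 ± 0.10 SE, adjusted p = 0.0142). The other comparisons of a *Cth* deletion with its own reference gave -0.55 for CBS/CSE(1) against CBS(5) (adjusted p = 0.00245) and -0.50 for the single *Cth* deletion against the control (adjusted p = 0.00555). In males of CBS/CSE(2) against CBS(8) it stood at -0.14 and was not called (adjusted p = 0.301 in a separate edgeR fit). The female call for *zda* was lost without CBS(8) replicate 2, with upper-quartile scaling and in a fit of these strains alone. *Sec6*, the exocyst subunit gene on the other side, had 34.7 ± 1.65 and 33.2 ± 4.46 CPM (adjusted p = 0.718).

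Farther out, 22 of 214 genes tested within 1 Mb of *Cth* were called (10.3%, against 5.36% of all genes), 13 higher and 9 lower. The share was 6.18% between 1 and 2 Mb, 6.78% between 2 and 5 Mb and 5.67% beyond. Within 1 Mb, a cluster of epsilon glutathione transferases had 5 higher and 1 lower of 11 genes tested. A cluster of bomanins, which are immune peptides, had 3 higher and 0 lower of 10. These clusters thus held many of the 22 calls. Within 1 Mb of *Cbs*, which both strains lack, 3 of 78 genes were called (3.85%). *Mctp*, a membrane protein with C2 domains, lay 139.6 kb from *Cth* and fell from 59.9, 53.5 and 56.1 CPM to 22.2, 22.9 and 23.2 CPM, with a wide gap between the strains (2.48-fold, adjusted p = 1.48e-05). *MFS15*, a transporter of the major facilitator superfamily 167 kb from *Cth*, fell 3.04-fold from 26.9 ± 1.83 to 8.85 ± 1.87 CPM (adjusted p = 1.48e-05) and also fell in CBS/CSE(1) against CBS(5) (log2 -1.18, adjusted p = 0.000203). At the edge of this interval, 997.7 kb away, *rhi* (rhino), which marks the clusters that make piRNAs in the ovary, had 46.3, 39.3 and 37.5 CPM in CBS(8) and 14.4, 22.9 and 10.7 CPM in CBS/CSE(2) (log2 -1.36, adjusted p = 0.00226). Of the 22, 5 were also called in the same direction in CBS/CSE(1) against CBS(5), *Mctp* and *MFS15* among them. The share was 18.4% over all 565 called genes and 27.5% over the 138 called on 2R, the arm of *Cth*.

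**Figure D3:**
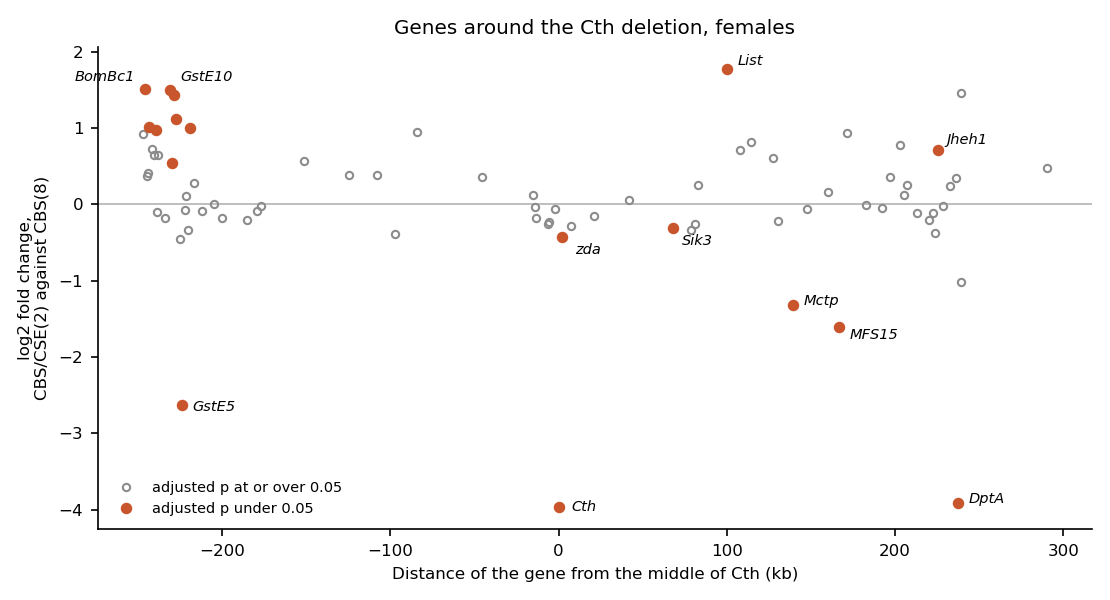
Log2 difference of CBS/CSE(2) from CBS(8) in females for the tested genes nearest to *Cth*, against the distance of their centre from it in kb, with called genes as filled points. *Cth* lies at -3.97, *DptA* at -3.91 to its right, and to its left the epsilon glutathione transferases lie close together, with *GstE3* at 1.12 and *GstE5* at -2.63.

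By chromosome arm the share of genes called was 6.15% on 2L, 6.54% on 2R, 6.31% on 3L, 4.25% on 3R and 3.99% on X, the chromosome that CBS/CSE(2) shares with CBS(8) by descent. In windows of 1 Mb, the highest share with many genes was that of 2L from 3 to 4 Mb, where 18 of 96 genes were called (18.8%). The calls were thus not confined to chromosome 2. Among the 115 genes that kept their call in each setting in which they could be tested, 58 were on chromosome 2, 49 on chromosome 3 and 7 on X. These chromosomes had 3946, 4569 and 1729 genes tested.

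Several genes of detoxification families differed. Of 79 cytochrome P450 genes tested, 11 rose and 2 fell (3.05% and 2.3% of all genes did), and the list's median was 0.34 (log2) against -0.02 over all genes. *Cyp6a2*, a P450 known for metabolizing insecticides, had 14.3, 13.8 and 18.4 CPM in CBS(8) and 115, 104 and 134 CPM in CBS/CSE(2), which was 7.59-fold higher (log2 2.92 ± 0.19 SE, adjusted p = 3.21e-08). The groups were far apart, and replicate 2 rose as much as the others. *Cyp6a2* also rose in CBS/CSE(1) against CBS(5) (log2 2.52, adjusted p = 1.31e-07) and in the single *Cth* deletion against the control (log2 3.13, adjusted p = 1.49e-08). *Cyp6a14* rose from 9.32, 8.48 and 8.70 CPM to 43.2, 23.5 and 35.8 CPM (3.87-fold, adjusted p = 7.23e-05), and *Cyp6a18* from 10.6 ± 1.77 to 50.1 ± 23.6 CPM (4.73-fold, adjusted p = 0.000358). *Cyp6a16* rose from 1.12 ± 0.456 to 4.89 ± 1.57 CPM (adjusted p = 0.000982). For these 3 genes neither of the other comparisons of a *Cth* deletion passed the test. *Cyp4p1* went the other way, from 35.2, 30.9 and 36.2 CPM to 6.45, 5.10 and 8.02 CPM, without overlap (5.22-fold lower, adjusted p = 7.23e-05). It was also lower in CBS/CSE(1) against CBS(5) (log2 -3.15, adjusted p = 2.80e-06) and in the single *Cth* deletion (log2 -1.37, adjusted p = 0.00687). With the thorax-based scaling the P450 genes were called in both directions about equally, 7 higher and 6 lower. Without CBS/CSE(2) replicate 2 the P450 counts were 28 higher and 8 lower.

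**Figure D4:**
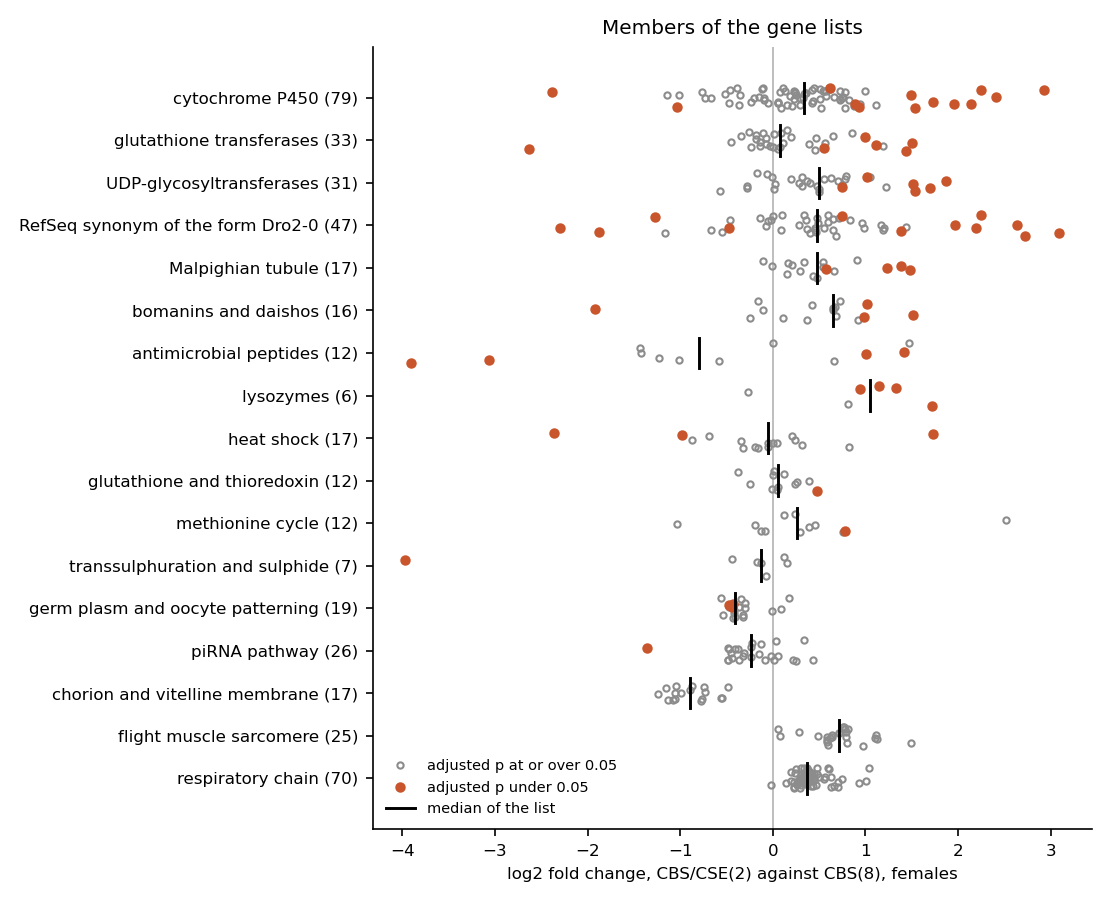
For each gene list, the log2 difference of CBS/CSE(2) from CBS(8) for every tested member, with called members marked. The P450 list ranges from -2.38 to 2.92 with 11 called higher and 2 lower, and the flight muscle list has 0 called although all 25 members lie above 0.

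Glutathione transferases, which attach glutathione to reactive compounds, had 5 of 33 tested genes higher and 1 lower, against 3.05% and 2.3% of all genes, with a median of 0.08 (log2). All 6 belong to the epsilon class and to 1 cluster on 2R, which lies 124.3 to 231.1 kb from *Cth*. *GstE10* had 11.2, 11.5 and 9.48 CPM in CBS(8) and 38.3, 17.0 and 35.9 CPM in CBS/CSE(2) (2.83-fold, adjusted p = 0.00504), and *GstE3* rose from 22.1 ± 2.07 to 48.0 ± 13.2 CPM (2.17-fold, adjusted p = 0.00576). *GstE5*, between them and *GstE9*, fell from 6.55, 6.998 and 6.89 CPM to 1.30, 0.625 and 1.35 CPM (6.19-fold, adjusted p = 0.000556). Its level in CBS(8) was above the 0.790 to 2.23 CPM of the 5 other strains. Neighbours within the cluster thus differed in opposite directions. The rises of *GstE1*, *GstE2* and *GstE9* lost their calls when CBS/CSE(2) replicate 1 or 3, or any library of CBS(8), was left out, and 2 genes of the list then remained higher in each of these fits. With the thorax-based scaling 3 were higher and 2 lower.

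Of 31 UDP-glycosyltransferase genes, which attach sugars to small molecules, 6 were higher and 0 lower, against 3.05% and 2.3% of all genes (median 0.50). *Ugt303B3* had 18.6, 17.3 and 21.5 CPM in CBS(8) and 64.4, 45.8 and 53.6 CPM in CBS/CSE(2) (2.86-fold, adjusted p = 0.00155), and its lowest CBS/CSE(2) library was still above every CBS(8) library. *Ugt35B1* had 25.7, 29.9 and 25.7 CPM against 85.7, 44.1 and 106 CPM (2.90-fold, adjusted p = 0.00715). The count of higher genes in this list was 2 to 4 when CBS/CSE(2) replicate 1 or 3 or a CBS(8) library was left out, 13 without CBS/CSE(2) replicate 2, and 3 with 1 lower under the thorax-based scaling.

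A family of ecdysteroid kinase-like genes, picked by the form of their RefSeq synonyms after the values had been seen, had 8 of 47 tested members higher and 4 lower (25.5% called, against 5.36% of all genes). These genes encode predicted kinases of small molecules, and some have been linked to inactivating steroid hormone or to detoxification. Of 23 members in 1 cluster on 3R, 5 were higher and 0 lower. *CG10513* had 21.6, 42.0 and 23.6 CPM in CBS(8) and 279, 111 and 355 CPM in CBS/CSE(2) (8.53-fold, adjusted p = 0.00155). *CG10560* had 8.02, 10.5 and 8.50 CPM against 49.7, 24.95 and 93.8 CPM (6.23-fold, adjusted p = 0.00237), and *CG11892* had 64.4, 66.7 and 61.0 CPM against 291, 150 and 437 CPM (4.57-fold, adjusted p = 0.00148). In all of them CBS/CSE(2) replicate 2 was the lowest of its group and replicate 3 the highest, without overlap with CBS(8). *CG10514* rose 3.92-fold (adjusted p = 0.00339) and *CG31380* 4.75-fold (adjusted p = 0.0041). *CG33511* on 2L had 7.54, 5.05 and 26.9 CPM in CBS/CSE(2) against 1.99 ± 0.165 CPM (adjusted p = 0.0490), and its call was lost when any library but CBS/CSE(2) replicate 2 was left out. Members outside the cluster also fell, as *CG9259* on 2L did (log2 -1.27, adjusted p = 0.00826). Without CBS/CSE(2) replicate 2 the family count was 17 higher, and without replicate 1, replicate 3 or a CBS(8) library it was 5.

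Some storage and hormone genes of the fat body were higher. Of 10 storage genes tested, 2 were higher and 0 lower, against 3.05% and 2.3% of all genes. *Lsp1beta*, a storage protein of the larval serum, had 4.20, 9.45 and 9.07 CPM in CBS(8) and 74.3, 22.4 and 111 CPM in CBS/CSE(2) (9.18-fold, adjusted p = 0.0216). *Fbp1*, the fat body receptor for such proteins, had 3 counts in all CBS(8) libraries together and 204 in those of CBS/CSE(2), a ratio of 63.7 with a 95% interval of 21.5 to 311.5 that covers counting error only. These counts came mostly from CBS/CSE(2) replicates 1 and 3, with 5.78 and 2.47 CPM against 0.625 CPM in replicate 2. For both genes CBS(8) and CBS(5) were the low strains. *Fbp1* had 4.73 CPM in the control, 4.42 CPM in CBS/CSE(1), 2.41 CPM in MST, 2.28 CPM in CSE(8) and 0.297 CPM in CBS(5). *Lsp1beta* had 47.5, 42.0, 38.7, 33.6 and 11.9 CPM in the same strains. The call for *Lsp1beta* was lost without any library except CBS/CSE(2) replicate 2, and that for *Fbp1* without CBS/CSE(2) replicate 1 or CBS(8) replicate 1 or 3. The 3 yolk protein genes were not called, and 2 were higher without CBS/CSE(2) replicate 2. Of 12 juvenile hormone genes, 2 were higher and 1 lower, against 3.05% and 2.3% of all genes. The higher ones were *to* and *Jheh1*, an epoxide hydrolase that degrades the hormone (53.2 ± 2.48 to 87.1 ± 22.5 CPM, adjusted p = 0.0379). The lower one was *JhI-21*, an amino acid transporter (132 ± 1.46 to 99.2 ± 21.1 CPM, adjusted p = 0.0411). Of these, *to* was called in all settings, and the calls of *Jheh1* and *JhI-21* were lost when any library but CBS/CSE(2) replicate 2 was left out.

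Immune peptides differed in both directions. Of 12 antimicrobial peptide genes tested, 2 were higher and 2 lower, against 3.05% and 2.3% of all genes (median of the list -0.80). *DptA* (Diptericin A) had 6.29, 9.76 and 12.8 CPM in CBS(8) and 0.670, 0.962 and 0.280 CPM in CBS/CSE(2) (log2 -3.91 ± 0.74 SE, adjusted p = 0.00442), and *Dro* (Drosocin) had 1.91, 2.45 and 6.32 CPM against 0.629, 0.288 and 0.326 CPM (8.36-fold lower, adjusted p = 0.00412). Both peptides are induced through the Imd pathway, and both were lower in every library of CBS/CSE(2). For *DptA* it was CBS(8) that stood apart, since the 5 other strains had means of 0.260 to 0.633 CPM, near CBS/CSE(2). *DptA* lies 237.4 kb from *Cth*. The drosomycin-like genes *Drsl4* and *Drsl5* were higher (28.5 ± 5.69 to 76.3 ± 32.7 CPM and 12.2 ± 3.54 to 24.4 ± 7.35 CPM, adjusted p = 0.00556 and 0.0311). With the thorax-based scaling neither passed the test, and without CBS/CSE(2) replicate 1 or 3 or CBS(8) replicate 1 or 3 only *Drsl4* did.

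*Dso1* (Daisho 1), a Toll-induced peptide, fell from 402, 408 and 332 CPM to 69.7, 94.6 and 137 CPM (3.80-fold, adjusted p = 0.00182) and fell in CBS/CSE(1) against CBS(5) too (log2 -1.56, adjusted p = 0.00857). It stood at 0.15 (log2) in the single *Cth* deletion against the control (adjusted p = 0.826). Of the 16 bomanins and daishos it was the one that was lower, and 3 bomanins, short secreted peptides of the Toll response, were higher. Over all genes 2.3% were lower and 3.05% higher. *BomBc2* had 116, 131 and 126 CPM in CBS(8) and 285, 195 and 272 CPM in CBS/CSE(2) (2.02-fold, adjusted p = 0.00494). Those of *BomT2* (adjusted p = 0.0348) and *BomBc1* (adjusted p = 0.0498) were lost when any library but CBS/CSE(2) replicate 2 was left out, and with the thorax-based scaling *BomBc1* alone was higher. Without CBS/CSE(2) replicate 2 the list had 9 higher.

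Of 6 lysozyme genes, which encode enzymes mostly of the gut, 4 were higher and 0 lower (median 1.05). Over all genes 3.05% were higher and 2.3% lower. *LysP* had 34.5, 43.4 and 41.1 CPM in CBS(8) and 157, 78.8 and 155 CPM in CBS/CSE(2) (3.28-fold, adjusted p = 0.00129), with no overlap. *LysB*, *LysD* and *LysE* are near-identical copies, so their separate values are uncertain. *LysB* had 141 CPM in CBS/CSE(2) replicate 2, within the 132 to 158 CPM of CBS(8), and 384 and 299 CPM in the other 2 libraries. Leaving out CBS/CSE(2) replicate 1 or a CBS(8) library left 1 lysozyme called, and so did the thorax-based scaling. *NimC1*, the phagocytosis receptor of plasmatocytes, fell from 10.4, 15.4 and 16.8 CPM to 2.51, 2.40 and 4.01 CPM (4.77-fold, adjusted p = 0.000751). It was lower as well in CBS/CSE(1) against CBS(5) (log2 -3.10, adjusted p = 2.66e-05), in the single *Cth* deletion (log2 -1.54, adjusted p = 0.0142) and in males (log2 -3.03, adjusted p = 2.32e-07). The other 5 hemocyte markers tested lay above 0 and were not called. *lectin-37Da*, a C-type lectin, had 10.4, 10.01 and 18.2 CPM in CBS(8) and 2.51, 0.721 and 1.07 CPM in CBS/CSE(2) (8.85-fold lower, adjusted p = 0.00231).

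Of the sulphur metabolism genes listed here, *Cth*, *MsrA* and *Gtpx* were called with all libraries, where 5.36% of all genes were. Of 7 genes of transsulphuration and sulphide oxidation tested, *Cth* alone was called. Of 12 genes of the methionine cycle and methionine repair, *MsrA*, which reduces oxidized methionine, was higher (183 ± 21.6 to 315 ± 52.5 CPM, 1.72-fold, adjusted p = 0.0427). *Gnmt*, which uses S-adenosylmethionine to methylate glycine, had 1.25 CPM in CBS(8) and 7.16 CPM in CBS/CSE(2) (log2 2.51, adjusted p = 0.0554) and did not pass. Of 12 glutathione and thioredoxin genes, *Gtpx*, a peroxidase, was higher (166 ± 4.94 to 231 ± 31.4 CPM, 1.39-fold, adjusted p = 0.0252). The calls of *MsrA* and *Gtpx* were lost when any library but CBS/CSE(2) replicate 2 was left out and under the thorax-based scaling.

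Of 13 genes of peroxide and superoxide defence, 2 peroxiredoxins rose in every setting. With all libraries 3.05% of all genes were higher. *CG12896* had 4.55, 4.44 and 3.47 CPM in CBS(8) and 19.3, 13.1 and 14.7 CPM in CBS/CSE(2) (3.77-fold, adjusted p = 3.14e-05). *Prx6b* had 7.89, 7.87 and 8.29 CPM against 26.6, 15.1 and 20.1 CPM (2.57-fold, adjusted p = 0.00131). In both genes all libraries of CBS/CSE(2) were above all of CBS(8), and neither was called in CBS/CSE(1) against CBS(5) or in the single *Cth* deletion. Without CBS/CSE(2) replicate 2 the list had 5 higher.

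Of 17 heat shock genes, 1 rose and 2 fell, against 3.05% and 2.3% of all genes. *Hsp23*, a small chaperone, had 51.4, 45.1 and 50.5 CPM in CBS(8) and 9.64, 11.0 and 7.92 CPM in CBS/CSE(2), a wide gap with little spread in either strain (5.15-fold lower, adjusted p = 0.000183). The 5 other strains had 4.21 to 20.8 CPM. It was lower in CBS/CSE(1) against CBS(5) as well (log2 -1.27, adjusted p = 0.0208) and stood at 0.03 in males (adjusted p = 0.949). *Hsp67Bc* rose from 0.921 ± 0.110 to 3.06 ± 1.21 CPM (3.31-fold, adjusted p = 0.00475). *Hsp26* fell 1.98-fold (adjusted p = 0.0183), and that call was lost without CBS/CSE(2) replicate 1 or 3, without CBS(8) replicate 2 and under the thorax-based scaling.

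Several lists that stand for whole tissues share members with the marker lists, so their likeness to the marker sums is no separate result. All 17 chorion and vitelline membrane genes lay below 0 (median -0.90), with 0 called, against 4 lower without CBS/CSE(2) replicate 3 and 3 lower with the thorax-based scaling. Of 19 genes of germ plasm and oocyte patterning, 17 lay below 0 (median -0.41) and 3 were called lower, against 2.3% of all genes. The called ones were *pum*, a translational repressor (338 ± 13.6 to 250 ± 50.2 CPM), *BicD*, a dynein adaptor, and *fs(1)N*, a protein of the vitelline membrane. Without CBS/CSE(2) replicate 2 this list had 15 lower, and without CBS/CSE(2) replicate 1 or 3 or CBS(8) replicate 1 or 3 it had 0. Of 26 piRNA pathway genes *rhi* alone was called, while 15 were lower and 1 higher without replicate 2. All 25 flight muscle genes lay above 0 (median 0.72) and 69 of 70 respiratory chain genes did (median 0.37), with 0 called in either list. In the fit without CBS/CSE(2) replicate 2, 16 flight muscle and 55 respiratory chain genes were called higher. *Act88F*, the flight muscle actin, had 103 CPM in CBS/CSE(2) replicate 3 and 9.04 CPM in replicate 2, against 12.8 to 17.3 CPM in CBS(8). Of 17 Malpighian tubule genes 4 were called higher and 0 lower, against 3.05% and 2.3% of all genes. They were the transporter gene *salt*, the phosphate transporter gene *NaPi-T* and the potassium channel genes *Irk3* and *Irk1*. None of the 4 was called without CBS/CSE(2) replicate 1 or 3 or CBS(8) replicate 2 or 3, and *Irk1* alone was without CBS(8) replicate 1.

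Among other lists, *mag*, a lipase that the gut secretes, rose from 123, 113 and 142 CPM to 330, 207 and 351 CPM (2.35-fold, adjusted p = 0.000907), the 1 called of 13 lipase and fat synthesis genes. *Mal-B1*, a maltase, fell from 12.3 ± 2.05 to 3.84 ± 0.941 CPM (adjusted p = 0.0183), the 1 called of 13 amylases and maltases, and the call was lost without CBS/CSE(2) replicate 1 or CBS(8) replicate 1 or 3. Of 28 odorant-binding protein genes 4 were higher, against 3.05% of all genes. *Obp83g* was among them (0.193 ± 0.0812 to 1.52 ± 0.251 CPM, adjusted p = 0.00413). *LManIV*, a lysosomal mannosidase, fell from 17.9, 14.4 and 23.0 CPM to 4.06, 2.69 and 3.36 CPM (5.45-fold, adjusted p = 0.000952), and *mthl8*, a receptor of the methuselah family, fell from 5.85, 5.31 and 7.46 CPM to 1.01, 0.529 and 0.792 CPM (7.91-fold, adjusted p = 7.34e-05). For *LManIV* the 5 other strains had 0.847 to 4.23 CPM, near CBS/CSE(2). Proteasome (34 tested), mitochondrial ribosomal protein (70), insulin and adipokinetic hormone (14), circadian clock (12), Turandot stress (5) and metallothionein (6) genes had 0 called with all libraries. When CBS/CSE(2) replicate 2 was left out, 0 proteasome genes and 1 to 4 of each other of these lists were called. DESeq2 called 1 Turandot and 2 clock genes, and the thorax-based scaling called 2 metallothioneins lower.

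A few genes had counts in CBS(8) and almost none in CBS/CSE(2). *CG43055* on 2L had 46.7, 34.3 and 51.0 CPM in CBS(8) and 0.0419, 0 and 0 CPM in CBS/CSE(2), or 2734 counts against 1, a ratio of 2918 with a 95% interval of 523.3 to 115300. CBS/CSE(2) replicate 2 was at 0 here. *CG11034* on 2L had 70.5, 56.6 and 76.4 CPM against 0.0419, 0.144 and 0.0932 CPM, or 4209 counts against 6, a ratio of 748.7 (95% interval 343.7 to 2041). *Ser12*, a serine protease gene on 2L, had 8.06, 8.38 and 9.64 CPM against 0 in all 3 libraries of CBS/CSE(2), at least 60.3-fold lower when set against 3 counts in each library. These intervals cover counting error only. DESeq2 did not call *Ser12* (adjusted p = 0.201). The levels in the other strains differed from gene to gene. *CG43055* stood at 36.5 CPM in the control, 5.98 CPM in the single *Cth* deletion and 0 in CBS/CSE(1). *CG11034* stood at 0.0176 CPM in the control strain and 50.02 CPM in CBS(5), and *Ser12* was at 0 in the 5 other strains.

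CBS/CSE(1) against CBS(5) repeats the same change of genotype with other libraries and the same *Cth* deletion chromosome, and it called 391 of the 10548 genes (3.71%). Of the genes called in CBS/CSE(2) against CBS(8), 104 were also called there in the same direction, which is 18.4% of 565 and 26.6% of 391, and 12 in the opposite direction. On chromosome 2, which both double deletions took from the *Cth* deletion strain, 81 genes were called in the same direction in both, 32.3% of the 251 called here and 34.2% of the 237 called there, and 3 in the opposite one. On chromosome 3 it was 13 genes, 5.53% of 235 and 12.7% of 102, with 9 in the opposite direction. On X, 8 genes were called in the same direction, 11.6% of 69 and 17.8% of 45, and 0 in the opposite one. On 3R, 2 genes were called in the same direction and 7 in the opposite one. Over all tested genes the log2 differences of both comparisons had a Pearson r of 0.32, with 0.50 on 2L, 0.38 on 2R, 0.19 on 3L, 0.11 on 3R and 0.28 on X, as a description across genes, which are not independent. *CG31955* on 2L (log2 2.55 and 3.38), *Cyp4p1* on 2R (-2.38 and -3.15) and *lectin-37Da* on 2L (-3.15 and -3.62) were among those that moved together.

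The difference itself departed from that between CBS/CSE(1) and CBS(5) for 109 genes (1.03%). On 3R, *CG10513* stood at -1.10 in CBS/CSE(1) against CBS(5) (adjusted p = 0.276) and 3.09 here, and *CG10560* at -1.28 (adjusted p = 0.142) and 2.64. The antisense RNA *asRNA:CR45192* on 3R fell there (-1.29, adjusted p = 0.018) and rose here (2.57, adjusted p = 0.000125), from 1.73, 1.89 and 1.19 CPM to 8.97, 7.64 and 12.1 CPM. The strand setting of the counting is not given in the sources used here, so its reads cannot be told apart from those of its partner. The hairpin RNA gene *hpRNA:CR32205* on 3L did the reverse, with 1.22 there (adjusted p = 0.0148) and a fall here from 18.4, 32.6 and 23.4 CPM to 4.86, 4.52 and 4.24 CPM (log2 -2.45, adjusted p = 6.15e-05). This count of 109 was 366 without CBS/CSE(2) replicate 2 and 55 without CBS(8) replicate 1.

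**Figure D5:**
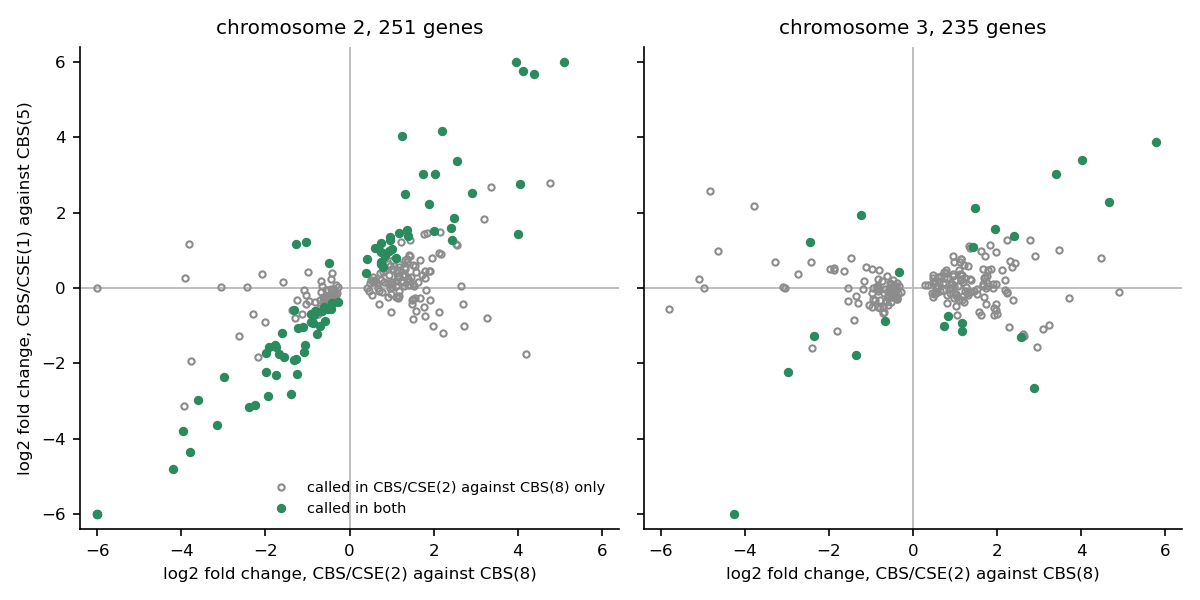
Log2 difference of CBS/CSE(2) from CBS(8) against that of CBS/CSE(1) from CBS(5) for the tested genes of chromosomes 2 and 3, with values beyond 6 in size drawn at the edge. Of the genes called in both, 81 on chromosome 2 have the same direction and 3 the opposite one, and on chromosome 3 the numbers are 13 and 9.

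Loss of *Cth* with *Cbs* present, the strain labelled CSE(8) against the control, called 291 genes (2.76%). Carriers of the *Cth* deletion had been outcrossed to a yw strain. The deletion and the other alleles of the strain therefore cannot be told apart in this comparison either. Here 53 were called in the same direction in both comparisons (9.38% of 565 and 18.2% of 291) and 17 in the opposite one, and the log2 differences had a Pearson r of 0.28 over all genes. The difference between the comparisons itself passed the test for 199 genes (1.89%), which was 639 without CBS/CSE(2) replicate 2 and 101 without CBS(8) replicate 1. *Cth* (log2 -3.97 and -4.02) and *Cyp6a2* (2.92 and 3.13) changed by like amounts. *CG17260* on 2L fell from 18.8 ± 2.18 to 4.70 ± 0.377 CPM here (adjusted p = 6.15e-05). It rose in CSE(8) against the control (log2 2.23, adjusted p = 1.58e-05), and *LManIV* stood at -2.45 and 2.01 (adjusted p = 0.00847). Of the 291 genes, 75 were on X, which held 1729 of the 10548 genes tested.

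Males of the same strains were compared in a separate fit, which tested 13036 genes. Of these, 10331 were also tested in females, and 858 of the 10331 were called (8.31%). Of the 565 genes called in females, 547 were measured in males and 497 of these had the same sign, and 240 were called in the same direction in both sexes (42.5% of 565 and 28.0% of 858) against 7 in the opposite one. In males *Cth* fell by 5.28 on the log2 scale (adjusted p = 7.08e-13). The rise of *to* was 3.91 in males (adjusted p = 1.19e-06), that of *Cyp6a2* 2.13 (adjusted p = 4.09e-05) and that of *Lsp1beta* 3.10 (adjusted p = 1.83e-05). *GstE5* fell by 2.68 (adjusted p = 0.000622) and *Cyp4p1* by 3.39 (adjusted p = 3.00e-09). *GstE10* stood at -0.11 in males (adjusted p = 0.61), *Mctp* at -0.09 (adjusted p = 0.679) and *DptA* at -1.02 (adjusted p = 0.691), none of which passed. Whether the effects differ between the sexes was not tested. The shared sign covers the same strains and their whole genetic background, and it is no independent test of the loss of *Cth*.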

How the data were processed

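Whole-fly RNA of both sexes and thoraxes was sequenced, and the 21 whole-fly female libraries (7 strains, 3 each) were used here, with 21 male ones in a separate fit. According to the labels and the study's methods, the tools were Trimmomatic 0.38 for trimming, STAR 2.5.0a for mapping to dm6 and featureCounts 1.5.0-p1 for counting. The authors deposited raw counts per gene, without normalization. The strand setting of the counting is not given in the sources used here. Reads on no gene or on several, 4.82 to 5.22% in the 6 libraries compared, were left out. The files list 17559 genes, of which 17253 were matched to Ensembl release 115 for symbols and dm6 positions.

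Counts were scaled by TMM and tested with edgeR 4.0.16 (limma 3.58.1, R 4.3.3) by the quasi-likelihood F test with 1 mean for each group, on genes that passed filterByExpr (min.count 10, min.total.count 15). Benjamini-Hochberg adjustment ran over the 10548 genes, and a gene was called at an adjusted p under 0.05. CPM values are TMM-scaled. Differences between comparisons were tested as contrasts in the same fit. The procedure was checked on simulated counts. The 6 libraries compared held 19612605 to 24980600 counts on genes.

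The text names the 3 deleted genes of the study, the 12 largest rises and 12 largest falls among called genes whose libraries do not overlap and whose higher mean reaches 5 CPM, and from each gene list the called members, at most the 6 with the smallest p. Other genes were named after their values had been seen. These include the ecdysteroid kinase-like family, the genes near *Cth*, *CG17260*, *Gnmt*, *Act88F* and the members of lists beyond that number. The comparison and the lists were chosen with earlier results of these data known. Alternatives were DESeq2 1.42.0, upper-quartile factors, a thorax-based TMM, no filter, a stricter one (10 counts in all libraries), a fit restricted to the compared groups, the replicate number as a block, a 2-fold minimum and leaving out single libraries. No sequence is shown.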

Additional observations from a re-analysis of the deposited data

Results flagged for a closer look

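The difference in CBS/CSE(2) against CBS(8) females was tested against that in other strains with a *Cth* deletion, as a contrast in the edgeR fit of all whole-fly females. It departed from that in CBS/CSE(1) against CBS(5) for 109 genes and from that in the strain labelled CSE(8) against the control for 199. On the log2 scale, the departure from CBS/CSE(1) against CBS(5) was 2.58 for *CG8851*, 4.19 for *CG10513*, 3.92 for *CG10560* and 3.86 for *asRNA:CR45192*, and -3.66 for *hpRNA:CR32205* and -2.49 for *LManIV*. The departure from the single *Cth* deletion was 5.13 for *CG8851*, 3.43 for *CG10513*, 3.48 for *CG31955* and 2.26 for *CR44003*. It was -2.94 for *mthl8*, -2.07 for *hpRNA:CR32205*, -4.46 for *LManIV* and -1.74 for *Hsp23*. For *CG43055* (-8.45) and *CG11034* (-13.45) the fitted size depends on how counts of 0 are treated and is no bound. Groups of 3 libraries were not searched for outlying samples, and no cause of these differences was tested.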

How the results depend on the processing

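The named genes that were called with all libraries kept their direction under the alternatives in which they were tested. The balance of 322 higher and 243 lower genes turned to more lower than higher with DESeq2 and the thorax-based scaling. It also did so without CBS/CSE(2) replicate 2 or CBS(8) replicate 1 or 2. The 565 genes called in CBS/CSE(2) against CBS(8) became 1052 with DESeq2 (516 higher, 536 lower), 373 with the thorax-based scaling (168 higher), 209 in a fit of only the groups compared (132 higher, 77 lower) and 326 with a 2-fold minimum (104 lower). The departure from the single *Cth* deletion (199 genes) became 355 with DESeq2 and 121 with at least 10 counts in every library. That from CBS/CSE(1) against CBS(5) (109 genes) became 303 with DESeq2, 165 with the thorax-based scaling, 64 with at least 10 counts in every library and 20 in a fit of only the groups compared. Leaving out 1 library gave 236 to 3874 genes changed, 116 to 1484 higher, 101 to 2390 lower, 101 to 639 departing from the single *Cth* deletion and 55 to 366 from CBS/CSE(1) against CBS(5), with the highest value of each without CBS/CSE(2) replicate 2. All 565 genes kept their direction without any single library and 564 kept their call without that replicate, while 234 to 258 kept it without 1 of the other libraries. With the thorax-based scaling 562 kept their direction and 274 their call. With the replicate block 711 genes were called (384 higher, 327 lower), and 207 and 114 departed from the other comparisons. Deviations of libraries with the same replicate number had correlations of -0.26, 0.0015 and 0.22, and those with different numbers -0.17 to 0.28. These values cannot decide whether replicate numbers pair the samples, because deviations within a group of 3 libraries sum to 0. The causes of these shifts were not tested.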
